A study of Homo sapiens with 2 samples.

Results

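The tripartite motif (TRIM) genes encode a family of mostly E3 ubiquitin ligases, and they were chosen here by name: every protein-coding gene whose symbol is TRIM followed by digits and an optional letter. The rule found 74 of the 58884 genes listed in each library. It used no measured value, but the family was singled out with results of these libraries already known, so its counts and medians are given as a description. A TRIM protein carries a RING domain, which recruits a ubiquitin-loaded E2 enzyme, then B-boxes and a coiled coil through which the proteins pair, and a C-terminal domain that binds the substrate. Members are best known for restricting viruses and tuning interferon signalling. Others repress transcription, organise microtubules or clear misfolded proteins.

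The cultures were of T24/R, an established human line from urinary bladder that the labels call epithelial and adherent. One library came from cells given 1600 nM THZ1 for 6 h and the other from cells given DMSO, the solvent, for 6 h. THZ1 is a covalent inhibitor of CDK7, which phosphorylates RNA polymerase II as part of TFIIH, and CDK12 and CDK13 are also among its targets. With 1 library per treatment the differences have no replicate check, and p-values are not given.

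The THZ1 library held 18313827 counts over 23528 genes and the DMSO library 18445831 counts over 23986 genes. Ratios are THZ1 over DMSO on the log2 scale after scaling with TMM, which sets the bulk of the genes to no change. Each is printed with a 95% interval that covers counting error only. A gene was tested when either library held at least 30 counts for it, and a call of lower or higher needed a change of 2-fold or more and an interval that left out no change. Of the 14 epithelial and urothelial markers looked up for the labelled cell type, 3 were tested. KRT18 had 494 counts in THZ1 and 696 in DMSO, whereas CDH1 had 3 in THZ1 and 2 in DMSO and EPCAM had 3 in THZ1 and 0 in DMSO. Of the uroplakins, which mark urothelium, UPK1B and UPK3A had 0 in both libraries. UPK1A had 5 in THZ1 and 10 in DMSO, and UPK2 had 2 in THZ1 and 0 in DMSO. GATA3 had 12 in THZ1 and 25 in DMSO, and KRT7 had 17 in THZ1 and 18 in DMSO. KRT5, KRT19 and PPARG had at most 5 counts in either library. TP63 had 34 counts in THZ1 and 61 in DMSO, and KRT8 had 100 in THZ1 and 77 in DMSO. The 10 markers of blood, endothelial and muscle cells summed to 4 counts in THZ1 and 14 in DMSO.

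Of the 74 TRIM genes, 37 had enough counts to be tested. Of these, 15 were lower in THZ1 (40.5%), 0 were higher and 22 were neither, beside 21.3% lower and 9.70% higher among the 12457 genes tested. All 15 lower members stayed lower with each of the other scalings tried, of which only the DESeq2 size factors raised the ratios, by 0.03. With the lower member nearest to 0 at −1.41 (TRIM3), this could not be otherwise and is no separate support. The 22 others had ratios between −1.0 and 0.74. The median log2 ratio of the tested members was −0.73 (quartiles −2.13 and −0.15), against −0.03 (quartiles −0.83 and 0.55) for all tested genes. The genes are not replicates, and this difference was not tested. At 4-fold or more, 12 members were lower (32.4%), beside 7.67% of all tested genes.

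A fall in a bulk library can mean fewer cells with the RNA, less RNA per cell or a smaller share of all RNA, which cannot be told apart. The ratios are relative to other genes and are not amounts per cell. Scaling to the mitochondrially encoded mRNAs shifts all log2 ratios by −1.69. Whether the bulk of the genes was unchanged, as TMM takes it, was not tested. Of the tested members, 33 reached the count minimum in both libraries and 4 (TRIM21, TRIM47, TRIM59 and TRIM62) reached it in DMSO alone, whereas 0 reached it in THZ1 alone. The 4 were admitted through the library in which their counts were higher, and 3 of them (all but TRIM59) were called lower, so no count over the tested members is given as support. Summed over all 74 members, with no filter, the family had 18094 raw counts in THZ1 and 34098 in DMSO. After TMM scaling the gap was smaller, with sums of 1181 CPM in THZ1 and 1546 CPM in DMSO.

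Levels are compared between genes as RPKM, which stands for TMM-scaled CPM per kilobase of exon. The tested members ran from 0.183 to 31.6 RPKM in THZ1 and from 0.265 to 44.6 RPKM in DMSO. TRIM28, the co-repressor that KRAB zinc finger proteins recruit to chromatin, had the highest level in both libraries, at 31.6 RPKM in THZ1 and 44.6 RPKM in DMSO. It was followed in THZ1 by TRIM37 (21.6 RPKM), TRIM14 (21 RPKM), TRIM33 (19.0 RPKM) and TRIM44 (14.1 RPKM). In DMSO the next levels were those of TRIM33 (21.1 RPKM), TRIM37 (18 RPKM), TRIM14 (16.1 RPKM) and TRIM16L (14.4 RPKM). None of these except TRIM16L was among the lower genes.

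The 5 highest members held 63.2% of the summed RPKM in THZ1 and 47.3% in DMSO. TRIM28 held 18.6% in THZ1 and 18.5% in DMSO. The 15 lower members, whose share had to fall since they were chosen as lower, together held 8.83% in THZ1 and 29.8% in DMSO, as 15 of 170 RPKM in THZ1 and 72 of 242 RPKM in DMSO. In THZ1 25 members reached 1 RPKM, against 36 in DMSO.

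**Figure D1:**
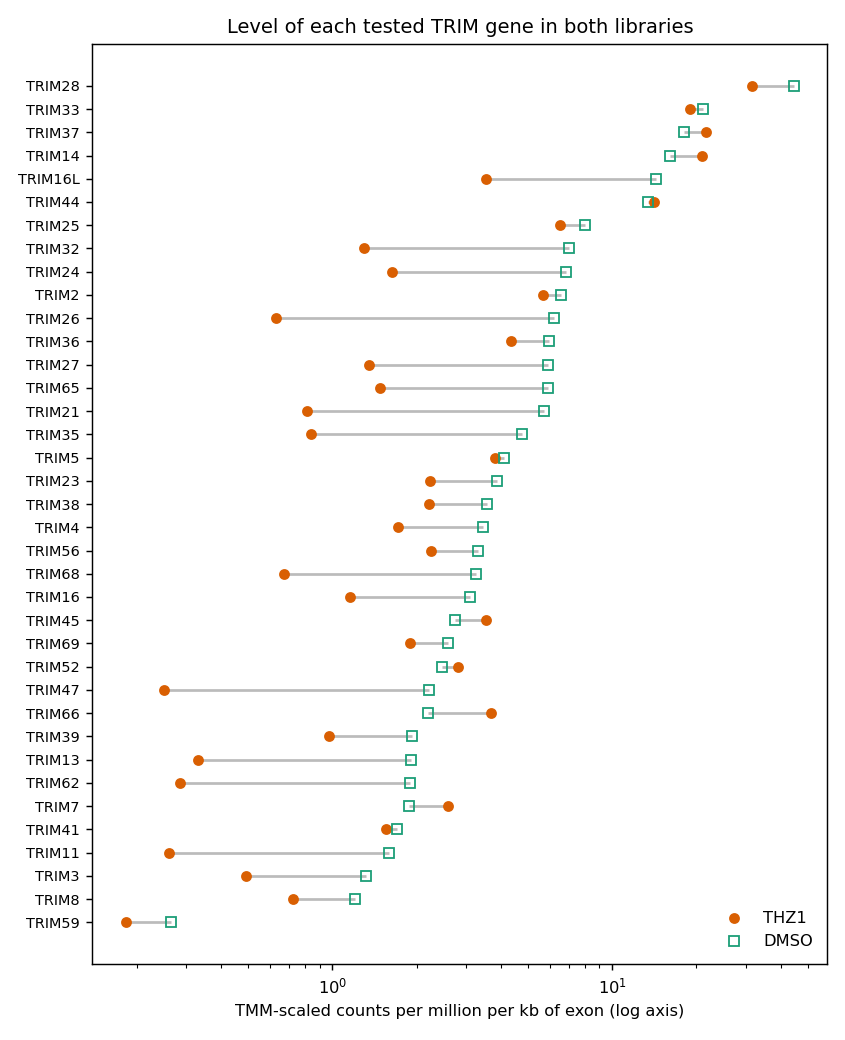
Level of the 37 tested TRIM genes as TMM-scaled CPM per kilobase of exon (log axis), with the THZ1 library as filled circles and the DMSO library as open squares. TRIM28 is at the top in both libraries, and TRIM26 shows the widest gap, at 0.626 in THZ1 and 6.22 in DMSO.

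The steepest fall was that of TRIM26, a ligase encoded within the major histocompatibility complex and linked to control of the interferon-beta response. It had 42 counts in THZ1 and 600 in DMSO, a 9.82-fold lower level (log2 ratio −3.30, −3.80 to −2.86). On GRCh38, TRIM26 (ENSG00000234127) lies on chromosome 6 from 30184455 to 30213427. TRIM21, the cytosolic antibody receptor that directs antibody-coated virus to the proteasome, had 24 counts in THZ1 and 242 in DMSO and was 6.88-fold lower (−2.78, −3.48 to −2.20). TRIM47, first described as overexpressed in astrocytoma, had 12 counts in THZ1 and 153 in DMSO and was 8.53-fold lower (−3.09, −4.13 to −2.30). TRIM47 had the fewest THZ1 counts of the tested members and the widest interval.

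The next steepest falls were those of TRIM62, TRIM11 and TRIM13. TRIM62, a regulator of epithelial cell polarity, had 16 counts in THZ1 and 152 in DMSO (−2.68, −3.57 to −1.98). TRIM11, which helps to clear misfolded proteins, had 34 counts in THZ1 and 299 in DMSO (−2.59, −3.17 to −2.10). For TRIM13, an endoplasmic reticulum ligase of the degradation pathway for misfolded proteins, the counts were 41 in THZ1 and 340 in DMSO (−2.51, −3.03 to −2.06). The levels of all 3 were between 0.261 and 0.331 RPKM in THZ1 and between 1.6 and 1.91 RPKM in DMSO.

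TRIM35 had 55 counts in THZ1 and 449 in DMSO (−2.49, −2.94 to −2.10). TRIM32, a ligase with NHL repeats that is mutated in a limb-girdle muscular dystrophy, had 75 counts in THZ1 and 585 in DMSO (−2.43, −2.80 to −2.09). TRIM68, a nuclear ligase that acts on the androgen receptor, had 44 counts in THZ1 and 309 in DMSO (−2.27, −2.78 to −1.83). All 3 stood between 4.83-fold and 5.63-fold lower.

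Among lower members with more counts, TRIM27, known from its fusion to the RET kinase gene in tumours, had 165 counts in THZ1 and 1042 in DMSO (−2.13, −2.38 to −1.90). TRIM24, which reads modified histone H3 and targets p53 for degradation, had 231 counts in THZ1 and 1395 in DMSO (−2.07, −2.28 to −1.87). TRIM65, a ligase for the RNA sensor MDA5, had 90 counts in THZ1 and 513 in DMSO (−1.98, −2.33 to −1.66). These genes were 3.94-fold to 4.38-fold lower.

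TRIM16, a member without a RING that takes part in the removal of damaged lysosomes, had 100 counts in THZ1 and 387 in DMSO (−1.42, −1.76 to −1.11). TRIM16L is a shorter, nearly identical copy of TRIM16 and had 234 counts in THZ1 and 1373 in DMSO (−2.02, −2.23 to −1.83). Reads of the pair can be split or shared, so their values are uncertain. Without both, 13 of the 35 remaining tested members were lower, beside 21.3% of all tested genes.

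The last lower member, TRIM3, is an NHL-repeat ligase known as a brain tumour suppressor. It had 51 counts in THZ1 and 196 in DMSO (−1.41, −1.89 to −0.97). Just outside the 2-fold limit stood TRIM4, a ligase for RIG-I with 129 counts in THZ1 and 371 in DMSO (−1.0, −1.30 to −0.71), and TRIM39, with 63 counts in THZ1 and 180 in DMSO (−0.98, −1.43 to −0.57). TRIM4 and TRIM39 were called lower with upper quartile scaling, which gave 17 lower members.

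**Figure D2:**
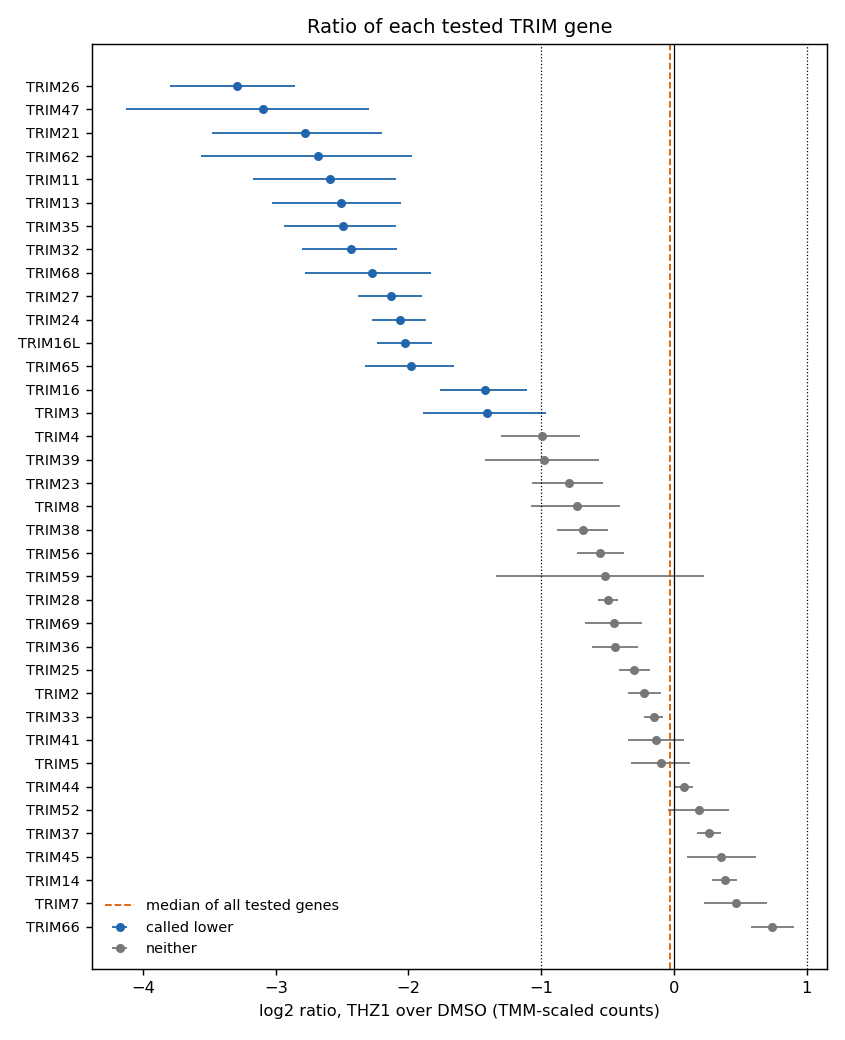
Log2 ratio of THZ1 over DMSO for the 37 tested TRIM genes, with 95% intervals for counting error alone as bars. Dotted lines mark 2-fold, the solid line marks 0 and the dashed line the median of all tested genes (−0.03). The 15 genes called lower lie between −3.30 and −1.41 and none lies above 2-fold higher.

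The other 20 tested members stayed within 2-fold at ratios closer to 0. TRIM28 had 1956 counts in THZ1 and 3970 in DMSO (−0.50, −0.57 to −0.42). TRIM33, the SMAD4 ligase of the same subfamily, had 2787 counts in THZ1 and 4462 in DMSO (−0.15, −0.22 to −0.09). TRIM25, which activates RIG-I, had 945 counts in THZ1 and 1673 in DMSO (−0.30, −0.42 to −0.18). Each of these 3 intervals lay below 0 and did not reach 2-fold.

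A further 10 members with ratios under 0 were TRIM23 (−0.79), TRIM8 (−0.73), TRIM38 (−0.69), TRIM56 (−0.55), TRIM59 (−0.52), TRIM69 (−0.45), TRIM36 (−0.44), TRIM2 (−0.22), TRIM41 (−0.14) and TRIM5 (−0.10). TRIM23 carries an ARF GTPase domain, TRIM36 binds microtubules and TRIM2 targets neurofilament light chain. The intervals of TRIM59, TRIM41 and TRIM5 reached above 0, and TRIM59 rested on 22 counts in THZ1 and 46 in DMSO.

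Ratios above 0 were seen for 7 members, none of them 2-fold. TRIM66, a relative of TRIM28 without a RING, had the highest ratio, with 662 counts in THZ1 and 570 in DMSO (0.74, 0.58 to 0.91). TRIM7, which binds the glycogen primer protein glycogenin, had 291 counts in THZ1 and 303 in DMSO (0.47, 0.23 to 0.70). TRIM14, a mitochondrial adaptor of antiviral signalling without a RING, had 1759 counts in THZ1 and 1942 in DMSO (0.38, 0.29 to 0.48). With total counts as the scaling TRIM7 and TRIM14 lie below 0 and TRIM66 stays above it, and with the mitochondrially encoded mRNAs all 3 lie below 0.

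TRIM45 (0.36), TRIM37 (0.27), TRIM52 (0.19) and TRIM44 (0.08) completed the members above 0. TRIM37, the ligase that restrains centriole formation, had 1818 counts in THZ1 and 2176 in DMSO (0.18 to 0.36). TRIM44, which carries a ubiquitin-binding zinc finger in place of a RING, had 2829 counts in THZ1 and 3864 in DMSO (0.00 to 0.15). With total counts or mitochondrial mRNAs as the scaling these 4 ratios also lie below 0.

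The number of members called lower depends on the scaling. The family median was −0.70 with DESeq2 size factors, beside 0.001 for all tested genes. It was −2.42 with the mitochondrial mRNAs, beside −1.72, and lay between these values with the other scalings. A scaling moves every ratio by the same amount, so the sign of the median is no separate support. All log2 ratios shift by −0.51 with total counts and by −1.69 with the mitochondrially encoded mRNAs, in members and other genes alike. With total counts 23 of the 37 members were lower, beside 34.2% of all tested genes, and with the mitochondrial mRNAs 36 were lower, beside 80.3%. DESeq2 size factors gave 15 lower members beside 20.9%, and the upper quartile gave 17 beside 22.2%. The number of members called higher was 0 under each of the 5 scalings, beside 9.70% of all tested genes with TMM, 2.95% with total counts, 10.5% with DESeq2 size factors, 8.89% with the upper quartile and 0.706% with the mitochondrial mRNAs. After the 0 with TMM the others were fixed, since the highest member ratio was 0.74 and no scaling raised it by more than 0.03.

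Other settings moved the members less. A count minimum of 10 gave 15 lower and 0 higher members, beside 20.1% lower and 12.3% higher among all genes tested so. A minimum of 100 also gave 15 and 0, beside 20.9% and 8.01%, and adding 5 to each count gave 15 and 0 beside 20.1% and 9.37%. A sum of 60 counts over both libraries gave 15 and 0 beside 20.5% and 9.06%. Neither the minimums nor the sum could take out a lower member, since each of the 15 had at least 152 counts in DMSO. Requiring the whole interval to lie past 2-fold gave 14 and 0 beside 15% and 5.38%, with TRIM3 no longer called.

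**Figure D3:**
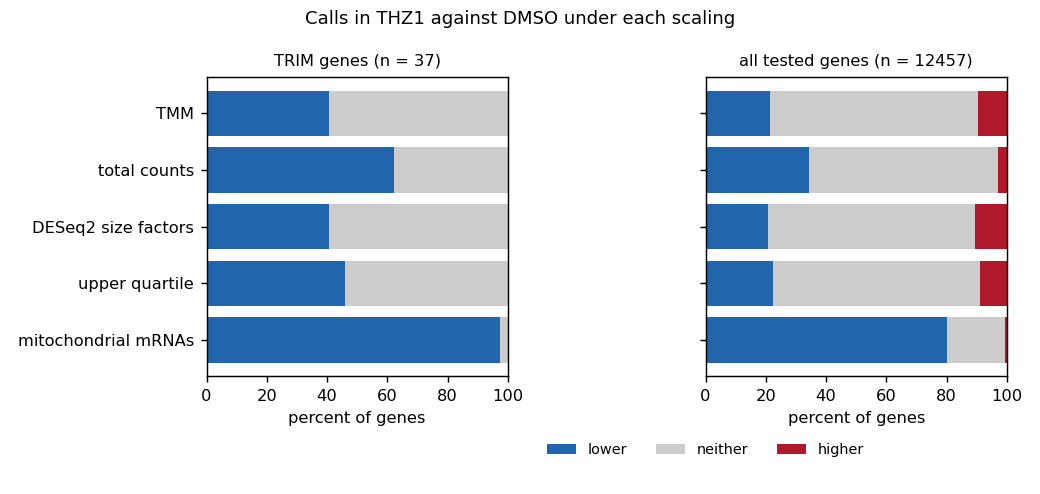
Percent of genes called lower, neither or higher in THZ1 against DMSO under each of 5 scalings, for the 37 tested TRIM genes (left) and the 12457 tested genes (right). The share of lower members is 40.5% with TMM and 97.3% with the mitochondrial mRNAs, beside 21.3% and 80.3% of all tested genes.

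The distribution of the whole family lay to the left of that of all tested genes. Of the 37 members, 30 had a ratio below 0 and 7 above, whereas 6383 of the 12457 tested genes were below 0. The RNF genes, a larger group of proteins named for their RING, were taken from their symbols in the same way: 60 of 84 were tested, 20 were lower (33.3%), 4 were higher and 36 were neither, with a median of −0.62, beside 21.3% lower and 9.70% higher among all tested genes. With total counts 31 RNF genes were lower and 0 higher, beside 34.2% and 2.95% of all tested genes. With the mitochondrial mRNAs 51 were lower and 0 higher, beside 80.3% and 0.706%. The difference between the TRIM and RNF genes was not tested, since there are no replicates.

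**Figure D4:**
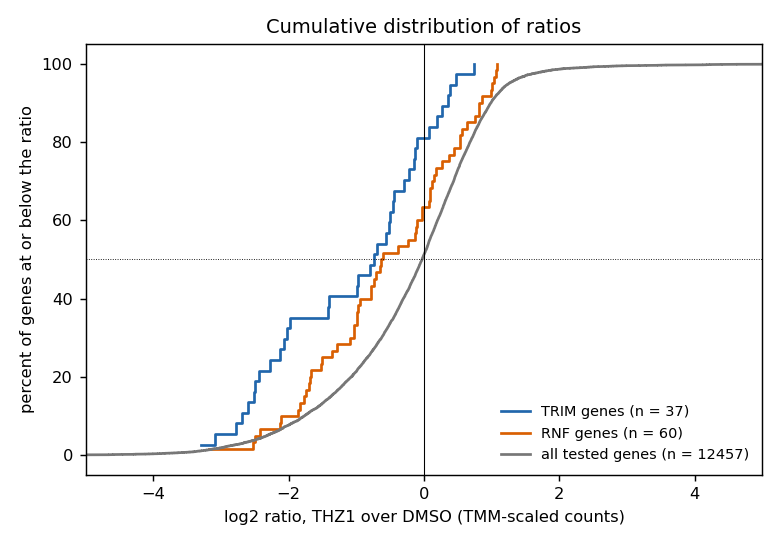
Cumulative percent of genes at or below each log2 ratio of THZ1 over DMSO for the 37 tested TRIM genes, 60 RNF genes and 12457 tested genes. At 50% the curves cross at −0.73 for TRIM genes, −0.62 for RNF genes and −0.03 for all tested genes.

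Members are sorted into classes by the domain that follows the coiled coil. The class named for the PRY-SPRY domain, a binding surface found in many antiviral members, holds 42 of the 74 genes, of which 20 were tested. Of these, 11 were lower (55%) and 9 were neither, with a median of −1.70, beside 21.3% lower among all tested genes. Outside this class 4 of 17 tested members were lower (23.5%), near that share, with a median of −0.50. These 17 include TRIM36 of the COS class, which was defined with or without a SPRY domain, so a SPRY can also occur outside the class. With total counts the numbers were 14 of 20 and 9 of 17, beside 34.2% of all tested genes, and the difference between the classes was not tested. Of the lower PRY-SPRY genes, TRIM21, TRIM47 and TRIM62 reached the count minimum in DMSO alone, the library in which they were higher. Outside the class only TRIM59, which was neither, did so. The class counts are therefore given as a description.

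The 4 lower members outside the PRY-SPRY class were TRIM24, TRIM13, TRIM32 and TRIM3. TRIM24 belongs to the chromatin-reading members with a PHD finger and a bromodomain, which are TRIM24, TRIM28, TRIM33 and TRIM66. Their ratios ran from −2.07 (TRIM24) to 0.74 (TRIM66), with TRIM28 and TRIM33 between them. Among the 3 tested NHL-repeat genes, TRIM32 and TRIM3 were lower and TRIM2 was not. Of the 5 tested members that lack a RING, TRIM16 and TRIM16L were lower, and TRIM14, TRIM44 and TRIM66 were above 0 with TMM but below it with the mitochondrial mRNAs.

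**Figure D5:**
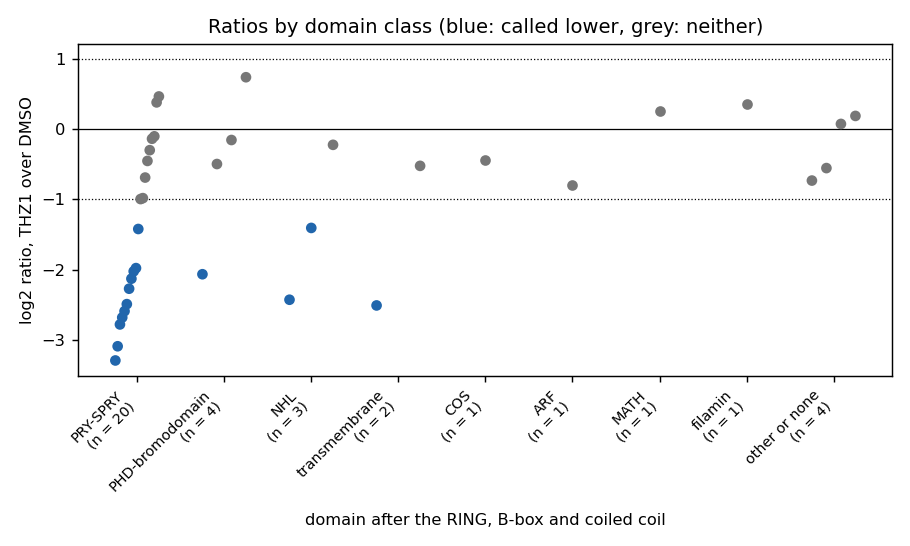
Log2 ratio of THZ1 over DMSO for each tested TRIM gene, by the domain class that follows the RING, B-box and coiled coil. Blue points are genes called lower and grey points neither, and dotted lines mark 2-fold. The PRY-SPRY class spans −3.30 to 0.47.

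Exon length was a property the rule did not use. The median exon length was 4.33 kb in the 15 lower members and 7.60 kb in the 22 others, and Spearman's rho between exon length and the log2 ratio was 0.49 over 37 genes of the same pair of libraries. Over 12444 tested genes with an annotated length it was −0.11. Gene span gave a rho of 0.32 over the members, with a median of 24.6 kb in the lower members and 40.7 kb in the others. Over the 12444 genes its rho was 0.03, with medians of 23.9 kb in lower genes and 35.2 kb in genes that were neither. Lower members also had fewer counts, at a median of 17.6 CPM in DMSO, against 24.9 CPM in DMSO for the others. Over the 12444 genes the medians in DMSO were similar, at 17.3 CPM in lower genes and 27.6 CPM in genes that were neither. The part of expression level in these values was not tested.

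Many TRIM genes lie beside each other. Of 19 pairs of neighbouring members within 100 kb, both were tested in 3. TRIM47 and TRIM65 lie on chromosome 17, on the same strand and 1.76 kb apart, with TRIM47 (ENSG00000132481) from 75874161 to 75878575 and TRIM65 (ENSG00000141569) from 75880335 to 75897003, and both were lower. The pairs TRIM7 with TRIM41 and TRIM41 with TRIM52 lie on chromosome 5, and neither pair held a lower gene. TRIM26 adjoins TRIM15 (11.8 kb), beyond which lie TRIM10, TRIM40 and TRIM31, and each of these 4 neighbours had 0 counts in both libraries. TRIM11, which was lower, lies 1.10 kb from TRIM17, which had 9 counts in THZ1 and 13 in DMSO.

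The promoters of TRIM47 and TRIM65 are shown because they belong to the neighbouring pair of lower genes. Sequences are from RefSeq (GRCh38.p14), as 300 bases running 5′ to 3′ on the minus strand, 250 before and 50 after the start. Capitals mark the GC box GGGCGG on either strand, It was found in 48.3% of the 27305 genes with a promoter window, in 77.6% of the tested genes among them and in 7 of the 9 lower members with a window. TRIM47 had 6 matches and TRIM65 had 4, at chr17:75878532-75878831 and chr17:75896902-75897201.
TRIM47: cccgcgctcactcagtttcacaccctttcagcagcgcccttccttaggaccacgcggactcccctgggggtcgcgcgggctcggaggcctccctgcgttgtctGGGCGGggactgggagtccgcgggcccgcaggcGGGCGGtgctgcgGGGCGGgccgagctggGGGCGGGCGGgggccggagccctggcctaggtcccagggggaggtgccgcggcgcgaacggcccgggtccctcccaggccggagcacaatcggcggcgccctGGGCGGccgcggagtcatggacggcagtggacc
TRIM65: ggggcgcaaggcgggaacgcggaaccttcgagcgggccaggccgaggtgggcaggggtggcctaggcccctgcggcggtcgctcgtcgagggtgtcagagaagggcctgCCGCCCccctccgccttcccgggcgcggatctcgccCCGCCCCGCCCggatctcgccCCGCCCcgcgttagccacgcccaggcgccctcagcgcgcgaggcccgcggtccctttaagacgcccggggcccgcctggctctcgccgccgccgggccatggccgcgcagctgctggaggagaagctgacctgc

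Interferon-inducible members are a group of antiviral genes, of which 7 of 9 were tested. TRIM21 was lower and TRIM5 (281 counts in THZ1 and 434 in DMSO), TRIM14, TRIM25, TRIM38, TRIM56 and TRIM69 were neither. This is 1 of 7, beside 21.3% of all tested genes. With total counts 3 of the 7 were lower, beside 34.2%, and with the mitochondrial mRNAs all 7 were, beside 80.3%. TRIM22 had 0 counts in THZ1 and 1 in DMSO and TRIM34 had 4 in THZ1 and 0 in DMSO, which allows no direction at this depth. TRIM5, which recognises retroviral capsids, TRIM22 and TRIM34 lie side by side on chromosome 11.

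The interferon-stimulated response element is the promoter site that interferon-activated factors bind, and its core was searched on both strands as GAAA, any 2 bases and GAAA. A match was found in 10 of the 58 members with a promoter window (17.2%), in 4.38% of the 27305 genes with a window and in 3.86% of the tested genes among them. It was found in 3 of 9 lower members, in 5 of 18 members that were neither and in 2 of 31 untested members. Shown here are the 3 lower members with a match, TRIM26, TRIM21 and TRIM16, and for comparison TRIM14 and TRIM5, which were neither. All run 5′ to 3′ on the minus strand with the match in capitals, from chr6:30213357-30213656, chr11:4393653-4393952, chr17:15682902-15683201, chr9:98119173-98119472 and chr11:5685025-5685324.
TRIM26: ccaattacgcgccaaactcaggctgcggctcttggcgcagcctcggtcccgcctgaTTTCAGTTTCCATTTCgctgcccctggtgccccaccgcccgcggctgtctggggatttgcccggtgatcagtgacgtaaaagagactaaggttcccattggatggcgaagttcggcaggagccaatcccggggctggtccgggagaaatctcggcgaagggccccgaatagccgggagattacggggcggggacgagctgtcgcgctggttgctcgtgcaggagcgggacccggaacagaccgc
TRIM21: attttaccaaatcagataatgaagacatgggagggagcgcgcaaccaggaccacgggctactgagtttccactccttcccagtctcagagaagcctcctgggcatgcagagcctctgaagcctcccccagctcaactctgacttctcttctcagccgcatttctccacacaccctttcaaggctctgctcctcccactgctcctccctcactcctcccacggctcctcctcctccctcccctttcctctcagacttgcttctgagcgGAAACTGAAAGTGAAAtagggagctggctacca
TRIM16: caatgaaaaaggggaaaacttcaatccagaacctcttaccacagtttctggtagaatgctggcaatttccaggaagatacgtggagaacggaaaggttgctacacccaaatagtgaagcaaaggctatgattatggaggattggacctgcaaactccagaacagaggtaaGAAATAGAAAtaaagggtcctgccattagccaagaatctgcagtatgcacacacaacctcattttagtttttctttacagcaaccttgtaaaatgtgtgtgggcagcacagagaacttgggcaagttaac
TRIM14: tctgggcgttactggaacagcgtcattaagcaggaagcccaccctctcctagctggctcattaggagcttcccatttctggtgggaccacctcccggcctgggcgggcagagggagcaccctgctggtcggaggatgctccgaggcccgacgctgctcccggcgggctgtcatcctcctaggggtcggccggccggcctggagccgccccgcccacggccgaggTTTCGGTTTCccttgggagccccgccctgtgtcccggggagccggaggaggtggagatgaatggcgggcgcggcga
TRIM5: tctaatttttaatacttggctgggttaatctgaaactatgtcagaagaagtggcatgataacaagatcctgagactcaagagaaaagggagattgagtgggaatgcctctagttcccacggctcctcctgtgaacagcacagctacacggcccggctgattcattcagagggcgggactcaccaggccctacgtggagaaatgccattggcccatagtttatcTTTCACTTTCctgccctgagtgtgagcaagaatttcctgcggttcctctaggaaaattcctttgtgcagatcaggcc

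TRIM26 and TRIM21 each hold 2 overlapping matches. Those of TRIM26 begin 194 and 188 bases before the start, and those of TRIM21 begin 17 and 23 bases past it. In TRIM14 and TRIM5 the match begins 26 and 27 bases before the start. Members with a match were thus found at ratios of −3.30 (TRIM26) as well as 0.38 (TRIM14). A match is a description of the letters and not evidence of a bound factor.

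The 37 untested members included 22 with 0 counts in both libraries and 15 with few counts. A count of 0 allows up to 3 counts, or 0.196 CPM in THZ1 and 0.136 in DMSO. The 22 comprised TRIM48, TRIM49, TRIM49B, TRIM49C, TRIM51, TRIM64, TRIM64B, TRIM64C and TRIM77, a group on chromosome 11 with several near-identical copies, and TRIM10, TRIM15, TRIM29, TRIM31, TRIM40, TRIM42, TRIM50, TRIM55, TRIM58, TRIM60, TRIM61, TRIM72 and TRIM75. TRIM29, known from epithelial tissues, was thus not detected in either library. The muscle members TRIM54, TRIM55, TRIM63 and TRIM72 summed to 2 counts in THZ1 and 1 in DMSO.

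The most counted untested members were TRIM9, with 11 counts in THZ1 and 27 in DMSO, and TRIM17. The remaining 13 (TRIM6, TRIM22, TRIM34, TRIM43, TRIM43B, TRIM46, TRIM51G, TRIM54, TRIM63, TRIM67, TRIM71, TRIM73 and TRIM74) had at most 6 counts in THZ1 and at most 3 in DMSO, and no fold is given for them.

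Genes of the family under other symbols are PML, MID1, MID2, MEFV, CMYA5, TRIML1, TRIML2, RNF207 and BSPRY. Of these, 4 were tested and 1 was lower, beside 21.3% of all tested genes. PML, the organiser of nuclear bodies, had 128 counts in THZ1 and 407 in DMSO (−1.14, −1.44 to −0.85). TRIML2 had 414 counts in THZ1 and 987 in DMSO (−0.73, −0.90 to −0.56) and RNF207 had 163 in THZ1 and 159 in DMSO (0.56, 0.24 to 0.88), which lies below 0 with the mitochondrial mRNAs.

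RING ligases depend on E1 and E2 enzymes, which activate and hand over ubiquitin. Of 14 such genes, all were tested, 0 were lower and 0 were higher, beside 21.3% and 9.70% of all tested genes. Their median was 0.47, with 13 above 0, but −0.05 with total counts and −1.22 with the mitochondrial mRNAs. With the mitochondrial mRNAs 10 were lower, beside 80.3% of all tested genes. UBE2V1 (0.88, 0.56 to 1.20), UBE2E3 (0.79, 0.69 to 0.89) and UBE2E1 (0.74, 0.66 to 0.83) were furthest from 0. UBE2V1 shares exons with a neighbouring gene, so its counts are uncertain.

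In RIG-I and STING signalling, the cytosolic nucleic acid sensing that many TRIM ligases act on, 14 of 15 genes were tested, of which 4 passed as lower and 1 as higher, near the 21.3% and 9.70% of all tested genes. TRAF6, itself a RING ligase, had 50 counts in THZ1 and 644 in DMSO (−3.15, −3.61 to −2.75). CGAS, the sensor of cytosolic DNA, had 181 counts in THZ1 and 1467 in DMSO (−2.49, −2.72 to −2.27). TBK1, the kinase that activates IRF3, had 310 counts in THZ1 and 1430 in DMSO (−1.68, −1.86 to −1.5).

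The other lower gene of that list, the kinase gene IKBKE, had 14 counts in THZ1 and 48 in DMSO (−1.22, −2.23 to −0.37). The higher gene, IRF7, had 32 counts in THZ1 and 21 in DMSO (1.12, 0.29 to 2.00), and it was not called with total counts. IKBKE reached the count minimum through DMSO alone and IRF7 through THZ1 alone, each the library in which it was higher. These 2 genes and RIGI were named after their values were seen. The sensor gene RIGI was within 2-fold, with 606 counts in THZ1 and 1054 in DMSO (−0.27, −0.42 to −0.13). With total counts 6 genes of the list were lower, beside 34.2% of all tested genes, and 0 higher.

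Among 9 partners of TRIM28 in gene repression, SETDB1, the histone methyltransferase that TRIM28 recruits, was lower with 169 counts in THZ1 and 534 in DMSO (−1.13, −1.39 to −0.88). The remaining 8 were neither, beside 21.3% lower and 9.70% higher among all tested genes. CHD3, a remodelling ATPase, and CBX1, a heterochromatin protein, had ratios of 0.85 and 0.81, which are below 0 on the mitochondrial scaling. Of 6 tested genes of the interferon receptor and its transcription factors, 0 were lower and 0 higher, too few to set apart from those shares. JAK1 (0.58) and IFNAR1 (0.50) were above 0 with TMM but below 0 with the mitochondrial mRNAs. With that scaling 7 of the 9 partners and all 6 of these genes were lower, beside 80.3% of all tested genes. The interferon-beta gene IFNB1 had 0 counts in both libraries.

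Of the 37 tested members, 19 share exon bases with another gene on either strand, and no strand setting is given in the sources used here. TRIM47 shares 51.5% of its exon bases with an antisense gene that had 0 counts in THZ1 and 2 in DMSO. TRIM59 shares 19.8% with SMC4, which had 5986 counts in THZ1 and 7000 in DMSO, and TRIM39 shares 12.2% with the antisense gene HCG18 (788 in THZ1 and 951 in DMSO) and 29.5% with the readthrough gene TRIM39-RPP21 (0 in THZ1 and 1 in DMSO). TRIM66 shares 0.800% with the ribosomal protein gene RPL27A, which had 12058 counts in THZ1 and 9262 in DMSO. Among the 18 tested members with no such overlap, 9 were lower and 0 higher, with a median of −1.10. Among all tested genes 21.3% were lower and 9.70% higher, with a median of −0.03.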

How the data were processed

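Per the labels' protocols, TRIzol was used for RNA extraction and a KAPA kit for mRNA for the libraries. The values the authors deposited are raw read counts per gene, not normalized, as the values show. Per the submitters' processing notes, Trimmomatic 0.38, HISAT2 2.1.0, featureCounts 1.6.0 and the build GRCh38 were used. Not given in the sources used here are the authors' annotation release, their strand setting and how multi-mapping reads were handled. Of 58884 gene IDs, 58611 were found in GENCODE 29 (GRCh38), the source of coordinates and exon lengths, and 58472 had a symbol. The libraries were grouped by treatment label.

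TMM factors from edgeR 4.0.16 (R 4.3.3), estimated over the tested genes, gave effective library sizes of 15320940 for THZ1 and 22049153 for DMSO. Ratios used 0.5 added to each count. Intervals are exact Clopper-Pearson intervals of the THZ1 share of both counts at 95%. Since reads lack molecular identifiers and may be PCR copies, intervals and floors (3 counts) cover counting error only. The calls were tested on simulated data. As alternatives the scaling used total counts, mitochondrial mRNAs, the upper quartile or size factors from DESeq2 1.42.0; further ones were count minimums of 10 and 100, 5 counts added, a stricter call and other member sets. A sum of 60 counts over both libraries, and leaving out TRIM16 and TRIM16L, were chosen after seeing the data.

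The members and the related lists were chosen with earlier results of these data known. Every tested member is named, and of each related list up to 3 genes furthest from 0 with 100 or more counts, of which 1 is not reported here. Of the 74 members, 58 had a RefSeq promoter window. The GC box, the TATA box, the cyclic AMP response element and the RNF genes were added after the data were seen. Other software was scipy 1.17.1, numpy 2.4.6 and pandas 2.3.3 under Python 3.11.15, with figures from matplotlib 3.10.9.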

Additional observations from a re-analysis of the deposited data

Results flagged for a closer look

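Of 60 genes outside the tested set (untested members and low-count genes that overlap a tested member), 2 had a counting interval wholly above 0 in THZ1 over DMSO and 1 wholly below 0. TRIM7-AS2, an antisense gene of TRIM7, had 10 counts in THZ1 and 2 in DMSO (log2 ratio 2.60, 0.62 to 6.08), and ENSG00000251537, a coding gene that shares 23.5% of the exon bases of TRIM16, had 6 counts in THZ1 and 1 in DMSO (2.64, 0.07 to 8.63). ENSG00000279179, which overlaps TRIM62 and lay below 0, had 1 count in THZ1 and 13 in DMSO (−2.64, −8.58 to −0.44). The intervals of the 22 members with 0 counts in both libraries could not leave out 0, nor could those of overlapping genes without counts. Among the rest, an interval at 95% can leave out 0 by counting error alone. The genes named were picked by their intervals and had under 30 counts in both libraries, so no direction is drawn from them.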

How the results depend on the processing

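The count of 15 lower TRIM members was the same with DESeq2 size factors, count minimums of 10 and 100, 5 counts added to each count and a sum of 60 counts over both libraries. The count minimums and the sum could not take out a lower member, since each had at least 152 counts in DMSO. The number lower was 17 with the upper quartile, 14 when the whole interval had to be past 2-fold (without TRIM3), 16 with the family genes of other symbols added and 13 without TRIM16 and TRIM16L. It became 23 with total counts, 36 with the mitochondrial mRNAs and 9 without members that overlap another gene, where only 18 were tested. The count of higher members was 0 in each of these, which the other scalings could not change, as the highest member ratio with TMM was 0.74. The median of −0.73 became −2.42 with the mitochondrial mRNAs.

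Among all tested genes, 2657 were lower and 1208 higher. Total counts gave 4260 lower and 368 higher, and the mitochondrial mRNAs gave 10000 lower and 88 higher. The number higher was 1885 with a count minimum of 10 and 670 with the stricter call. With the mitochondrial mRNAs, members above 0 turned to called lower: TRIM45 (−1.33), TRIM7 (−1.22), TRIM52 (−1.5), TRIM14 (−1.31), TRIM44 (−1.61) and TRIM37 (−1.42). These shifts follow from the scaling itself, which moves all ratios alike. No paired analysis was possible because each treatment has 1 library, and for the same reason no library could be left out. At this depth, members under 30 counts in both libraries allow no direction.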

Other observations

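Promoter letters were also counted in untested and tested TRIM genes, with no test. The 36 windows of untested members had a median GC content of 52.5% and a median of 3 CpG dinucleotides, against 64% and 24 in the 11 windows of lower members and 62% and 19 in the 30 windows of members that were neither. The TATA box TATAAA, on either strand, was found in 11 of 31 untested members (35.5%), in 0 of 9 lower members and in 1 of 18 that were neither, beside 14% of the 27305 genes with a window. The cyclic AMP response element TGACGTCA was found in 1 of the 58 members with a window (1.72%), TRIM66, beside 2.25% of those genes. Windows of 1 gene can overlap, and several untested members, such as those of the TRIM49 and TRIM64 groups, are near-identical copies, so these are not independent genes.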
